A study of Mus musculus with 6 samples.

Results

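Enzymes and enzyme partners that turn arachidonic acid into prostaglandins, thromboxane and leukotrienes were read out of a table of 34652 genes by 10 gene symbols, Ptgs1, Ptgs2, Ptges, Hpgds, Ptgds, Tbxas1, Alox5, Alox5ap, Lta4h and Ltc4s, and all 10 were present. The table holds 6 bulk RNA libraries, 3 of resident macrophages (labelled dLAM, and named so below) and 3 of monocyte-macrophages, both from the cerebrospinal fluid of mice with leptomeningeal metastasis. All the mice carried a tamoxifen-inducible Cre driven by Cx3cr1 together with the mTmG reporter, had been given tamoxifen and had been inoculated 12 days earlier with LLC-LeptoM, a mouse lung carcinoma line able to grow in the leptomeninges. These dLAM cells were sorted as CD45+, CD11b+, F4/80+, Ly6C-, GFP+ cells, and monocyte-macrophages as a mix of GFP- cells that were either F4/80+ or F4/80 low and Ly6C+. GFP therefore marks cells in which the Cx3cr1-driven Cre had acted, whatever their origin. The labels give no age and do not say whether a library came from 1 mouse or from pooled mice, so the p-values below reflect differences among libraries that may be partly technical.

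Arachidonic acid is freed from membranes by phospholipases and then enters separate routes. The cyclooxygenases COX-1 (Ptgs1) and COX-2 (Ptgs2) make the unstable intermediate PGH2, which is turned into PGD2 by the hematopoietic (Hpgds) or lipocalin-type (Ptgds) PGD synthase, into PGE2 by PGE synthases such as Ptges, or into thromboxane by Tbxas1. In the other route 5-lipoxygenase (Alox5), which needs the membrane protein FLAP (Alox5ap), makes the intermediate LTA4, and this becomes the neutrophil attractant LTB4 through Lta4h or the cysteinyl leukotriene LTC4 through Ltc4s. Macrophages, mast cells, platelets and neutrophils are each known for a different mix of these enzymes.

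Values are FPKM, fragments scaled by gene length and library size, as deposited by the authors. Depth, estimated from the steps of 1 fragment in the lowest values, was between 1.23e+07 and 1.70e+07 fragments per library, and between 10281 and 11470 genes reached 1 FPKM. With limma on log2(FPKM + 1), 11317 genes were tested, those of 1 FPKM or more in 3 or more libraries, and a gene passed below a Benjamini-Hochberg adjusted p of 0.05. Each log2 fold change is dLAM minus monocyte-macrophage on that scale and is smaller than the true change where values are low. All 12 macrophage markers were above 1 FPKM in each dLAM library and 11 in each monocyte-macrophage library. All 8 classical monocyte markers were lower in dLAM, against 10.6% of all tested genes. Since dLAM were sorted as Ly6C- and the other group included Ly6C+ cells, Ly6c2 was not free to go either way. Markers of other cells had more RNA in dLAM as well. The summed level was between 151 and 177 FPKM in dLAM and between 4.63 and 23.4 FPKM in monocyte-macrophages for 10 T cell markers, between 161 and 237 against between 16.4 and 20.5 FPKM for 10 dendritic cell markers, between 15.9 and 25.2 against between 1.49 and 4.69 FPKM for 6 B cell markers, and between 26.9 and 31.6 against between 1.74 and 2.92 FPKM for 5 carcinoma markers, led by Cdh1. Of the carcinoma markers, Cdh1 and Epcam gave most of the sum in dLAM. The keratin gene Krt18 was between 1.10 and 1.69 FPKM in dLAM and between 0.210 and 0.522 FPKM in monocyte-macrophages. Krt18 was called higher (limma adjusted p = 0.0053), but reached 1 FPKM in dLAM libraries alone and so could pass the filter only by differing. Its call was lost with quantile normalization. Of the other keratin genes, Krt8 overlapped between groups, and Krt19 was listed at 0 in every library except dLAM library 3. The part of T cells, dendritic cells, B cells and carcinoma cells in the results below was not tested. In bulk RNA a smaller number of cells of a type and less RNA per cell cannot be told apart.

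dLAM had more RNA of both PGD synthases, of thromboxane synthase, of COX-1 and of LTC4 synthase, and less RNA of FLAP. Of the 10 genes, 9 were tested, and 5 were higher and 1 lower, where 19.9% of all tested genes were higher and 10.6% lower, together 30.5%. With quantile normalization 1800 genes were higher and 1712 lower, in place of 2249 and 1204, and the calls of the 9 enzymes were the same. Hpgds, Ptgds and Ltc4s reached 1 FPKM in dLAM libraries alone and so could pass the filter only by differing. Among the 6 genes at 1 FPKM or more in all 6 libraries, Tbxas1 and Ptgs1 were higher and Alox5ap lower, while 15.3% of the 9401 genes of that kind were higher and 11.4% lower. The median log2 fold change was 0.87 over the 9 tested genes and 0.06 over all tested genes, the first including the 3 genes that had to differ. Ptges did not reach the filter. In 5 of the 9 tested genes every dLAM library lay above every monocyte-macrophage library, and in 2 (Alox5ap and Lta4h) below, against 29.3% and 16.9% of all tested genes, together 46.2%.

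**Figure D1:**
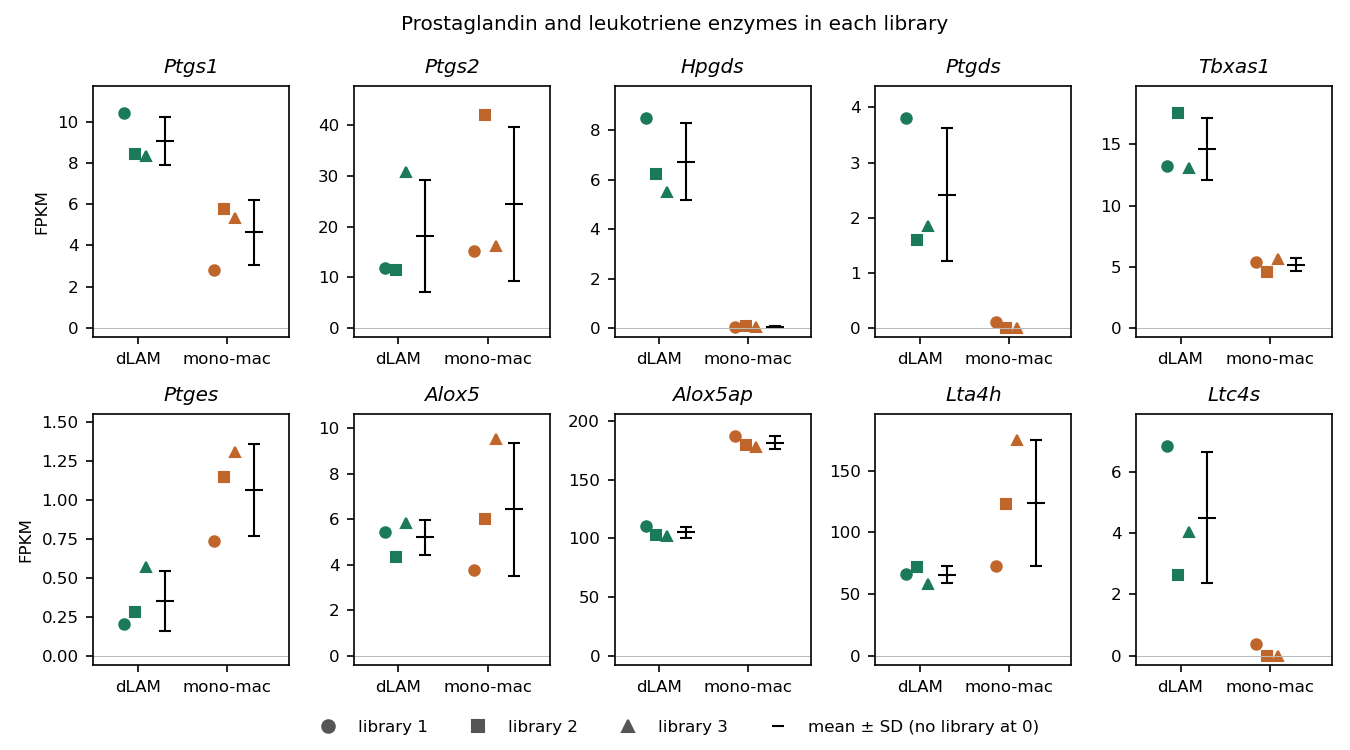
Level of the 10 enzymes in FPKM (linear axes, a scale for each gene) in the 3 dLAM and 3 monocyte-macrophage (mono-mac) libraries, with 1 point per library and the mean ± SD of a group where no library was listed at 0. Hpgds, Ptgds and Ltc4s sit near 0 in the monocyte-macrophage libraries, with a highest value of 0.366 FPKM, while Alox5ap lies between 102 and 111 FPKM in the dLAM libraries and between 178 and 188 FPKM in the others.

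To show what lies in front of the 5 genes that were higher, the 250 bases before the start of each are given from RefSeq on build GRCm38.p6, 5′ to 3′ on the strand of the gene. Capitals mark GAGGAAG or its reverse complement CTTCCTC, letters found in sites of the myeloid transcription factor PU.1. For Hpgds, Tbxas1, Ptgds and Ltc4s the RefSeq start lies inside the GENCODE gene given below.
Hpgds (chr6:65144731-65144980, minus strand): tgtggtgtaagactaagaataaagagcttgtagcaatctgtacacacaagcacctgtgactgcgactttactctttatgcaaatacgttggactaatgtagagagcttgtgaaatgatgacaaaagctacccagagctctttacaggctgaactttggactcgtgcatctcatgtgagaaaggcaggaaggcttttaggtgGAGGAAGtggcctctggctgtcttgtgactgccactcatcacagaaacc
Tbxas1 (chr6:38918736-38918985, plus strand): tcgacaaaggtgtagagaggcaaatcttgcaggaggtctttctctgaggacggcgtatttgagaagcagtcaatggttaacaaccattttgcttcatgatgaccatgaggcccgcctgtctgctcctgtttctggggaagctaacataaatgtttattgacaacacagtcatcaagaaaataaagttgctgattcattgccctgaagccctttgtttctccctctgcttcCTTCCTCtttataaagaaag
Ptgs1 (chr2:36230176-36230425, plus strand): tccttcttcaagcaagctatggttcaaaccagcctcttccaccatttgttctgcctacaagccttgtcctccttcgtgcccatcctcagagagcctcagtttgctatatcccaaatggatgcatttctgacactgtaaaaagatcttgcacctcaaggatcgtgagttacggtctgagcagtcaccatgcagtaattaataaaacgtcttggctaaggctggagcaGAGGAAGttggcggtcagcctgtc
Ptgds (chr2:25469750-25469999, minus strand): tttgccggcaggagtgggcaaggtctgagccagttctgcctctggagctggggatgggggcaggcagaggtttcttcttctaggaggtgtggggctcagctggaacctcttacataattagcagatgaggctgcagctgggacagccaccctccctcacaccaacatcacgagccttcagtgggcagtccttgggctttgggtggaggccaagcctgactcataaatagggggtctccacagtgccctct
Ltc4s (chr11:50238533-50238782, minus strand): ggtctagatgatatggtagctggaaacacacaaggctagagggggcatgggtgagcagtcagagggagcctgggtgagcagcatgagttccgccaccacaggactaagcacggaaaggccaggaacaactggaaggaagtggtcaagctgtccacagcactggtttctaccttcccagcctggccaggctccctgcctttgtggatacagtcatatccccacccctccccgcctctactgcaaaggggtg
Searched on both strands, the motif was present in 3 of the 9 windows that the table of promoters holds for these enzymes, those of Hpgds, Tbxas1 and Ptgs1. Over all 32851 promoter windows of the same length 10.6% held it. The motif was chosen after these windows had been read, so the matches are a description of the letters and not of binding.

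Both cyclooxygenases were expressed, and they differed in how they varied. Ptgs1, the constitutive form (chromosome 2, 36230426 to 36252272), stood at 10.4, 8.44 and 8.33 FPKM in dLAM libraries 1, 2 and 3 and at 2.83, 5.78 and 5.31 FPKM in monocyte-macrophage libraries 1, 2 and 3. The groups did not overlap, and the mean was 1.95-fold higher in dLAM at 9.06 ± 1.17 against 4.64 ± 1.58 FPKM (SD, n = 3 each). The log2 fold change was 0.87 with a standard error (SE) of 0.22 and a limma adjusted p of 0.022. That call was lost without dLAM library 1, 2 or 3 (limma adjusted p = 0.083, 0.060 and 0.051).

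Ptgs2, the inducible form (chromosome 1, 150100031 to 150108227), stood at 11.9, 11.5 and 30.8 FPKM in dLAM libraries 1 to 3 against 15.2, 42.0 and 16.2 FPKM in monocyte-macrophage libraries 1 to 3. The groups overlapped, and the log2 fold change of -0.41 (SE 0.47) did not pass (limma adjusted p = 0.56). Within each group 1 library stood well above the others, dLAM library 3 and monocyte-macrophage library 2. These are also the 2 libraries with more RNA of the Y-linked genes Ddx3y, Eif2s3y, Kdm5d and Uty, whose summed level was 5.49, 4.40 and 23.5 FPKM in dLAM and 3.31, 26.1 and 5.46 FPKM in monocyte-macrophages. Among the libraries with more Y-linked RNA, Ptgs2 was at 30.8 FPKM in the dLAM library and 42.0 FPKM in the monocyte-macrophage library. Among the other 4 libraries it averaged 11.7 FPKM in the 2 of dLAM and 15.7 FPKM in the 2 of monocyte-macrophages. The log2 difference was -0.43 in the first pair and -0.39 in the other 4 libraries. With a term for this split in the fit the log2 fold change of -0.41 had an SE of 0.08 and passed (limma adjusted p = 0.011), where 21.3% of all genes were higher and 11.6% lower. In a fit of those 4 libraries alone it did not pass (limma adjusted p = 0.077). Il1b, a cytokine that induces Ptgs2, was highest in the same 2 libraries, at 206 FPKM in dLAM library 3 and 269 FPKM in monocyte-macrophage library 2, and between 101 and 150 FPKM in the other 4.

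**Figure D2:**
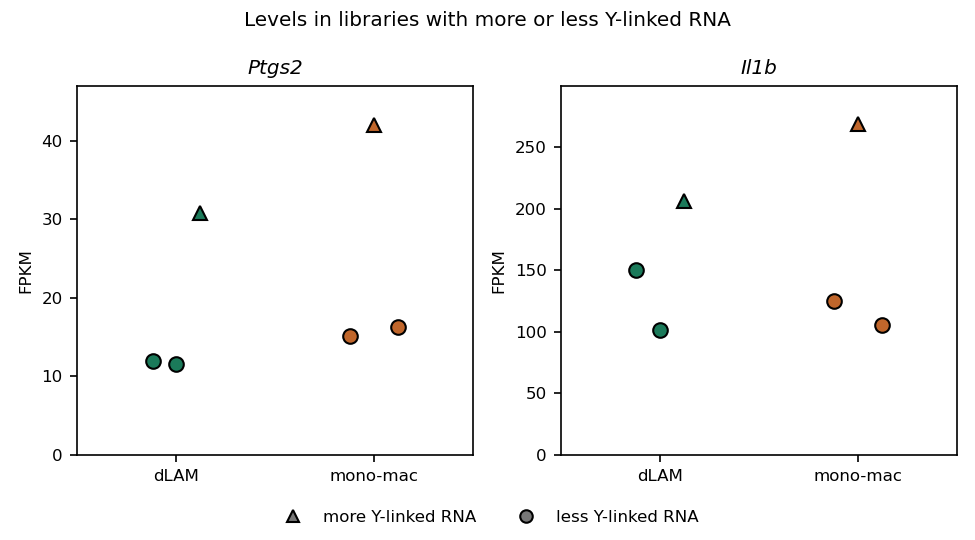
Ptgs2 and Il1b in FPKM (linear axes from 0) in each dLAM and monocyte-macrophage (mono-mac) library, with triangles for the 2 libraries with more Y-linked RNA and circles for the others. Ptgs2 reaches 30.8 and 42.0 FPKM in the triangles and stays between 11.5 and 16.2 FPKM in the circles.

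Of the 4 listed synthases that take up PGH2 (Hpgds, Ptgds, Tbxas1 and Ptges), Hpgds had the largest log2 fold change and Tbxas1 the most RNA. Hpgds, the hematopoietic PGD synthase (chromosome 6, 65117293 to 65144908), had 8.48, 6.21 and 5.48 FPKM in dLAM libraries 1 to 3, and 0.0380, 0.0740 and 0.0305 FPKM in monocyte-macrophage libraries 1 to 3. With GENCODE exon lengths this corresponds to an estimated 438 to 806 fragments in dLAM and 3.34 to 6.68 in monocyte-macrophages, so no ratio of means is given. Its log2 fold change was 2.86 (SE 0.16, limma adjusted p = 3.9e-05), and 5.52 with a pseudocount of 0.1.

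Ptgds, the lipocalin-type PGD synthase of meninges and choroid plexus (chromosome 2, 25466709 to 25470046), was at 3.80, 1.59 and 1.85 FPKM in the dLAM libraries and listed at 0.110, 0 and 0 FPKM in the monocyte-macrophage libraries. The log2 fold change was 1.67 (SE 0.24, limma adjusted p = 0.0016). dLAM library 1 held about as much Ptgds as the other two together. Markers of the cells known for this enzyme were mostly below the filter. The summed level of 10 meningeal fibroblast markers was between 4.46 and 6.63 FPKM in dLAM and between 0.390 and 1.17 FPKM in monocyte-macrophages. Of these 1, Col3a1, was above 1 FPKM in every dLAM library. All of the 10 except Slc22a6 were higher in every dLAM library than in every monocyte-macrophage library, as were 29.3% of all tested genes. Of the choroid plexus marker Ttr there were 0.776, 6.47 and 0.925 FPKM in dLAM libraries 1 to 3, and it was listed at 0 in each monocyte-macrophage library. The summed level of all 9 choroid plexus and neural markers was between 7.76 and 14.8 FPKM in dLAM and between 6.65 and 8.36 FPKM in monocyte-macrophages. Of that sum Mbp, which did not pass, held 5.57, 7.02 and 7.05 FPKM in dLAM and 8.11, 6.96 and 6.17 FPKM in monocyte-macrophages. Of the 9 markers 5, Ttr among them, were listed at 0 in every monocyte-macrophage library. dLAM library 2, with the most Ttr, had the least Ptgds of the 3. The fibroblast sum was 6.63, 4.74 and 4.46 FPKM in dLAM libraries 1 to 3, highest in library 1 as Ptgds was. The part of fibroblasts and choroid plexus cells was not tested.

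Tbxas1, thromboxane synthase (chromosome 6, 38875404 to 39084585), was the most abundant of these 4 in every library. It stood at 13.2, 17.5 and 13.1 FPKM in dLAM libraries 1 to 3 and at 5.36, 4.54 and 5.59 FPKM in monocyte-macrophage libraries 1 to 3. The groups did not overlap, the mean was 2.83-fold higher in dLAM (14.6 ± 2.53 against 5.16 ± 0.551 FPKM, SD, n = 3 each), and the log2 fold change of 1.33 (SE 0.14) passed at a limma adjusted p of 4.8e-04. Platelets are the cells best known for this enzyme and for COX-1. Their 8 markers summed to between 41.1 and 56.4 FPKM in dLAM and to between 2.96 and 15.1 FPKM in monocyte-macrophages. Of these 1, Pf4, was above 1 FPKM in every library of either group. Ppbp, which encodes a platelet chemokine, was at 1.62, 0.600 and 2.75 FPKM in dLAM and 0.270, 0.263 and 1.74 FPKM in monocyte-macrophages. Gp1bb reached 1 FPKM in monocyte-macrophage library 3 alone, at 1.44 FPKM, and the other 5 markers in no library. Of those 5, Gp9 and Gp6 overlapped between groups. Treml1, Itga2b and Gp1ba did not and lay above in dLAM, as did 29.3% of all tested genes. Treml1 was at 0.325, 0.521 and 0.452 FPKM in dLAM and 0, 0.0570 and 0 FPKM in monocyte-macrophages. Itga2b was at 0.466, 0.451 and 0.506 FPKM in dLAM and 0.0990, 0.350 and 0.261 FPKM in monocyte-macrophages. Gp1ba was at 0.0912, 0.0783 and 0.0465 FPKM in dLAM and 0, 0.0274 and 0 FPKM in monocyte-macrophages. Pf4, which border macrophages also express, was at 45.5, 39.0 and 52.3 FPKM in dLAM and 2.31, 2.09 and 11.3 FPKM in monocyte-macrophages. The part of platelets in the levels of Tbxas1 and Ptgs1 was not tested.

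Ptges, the inducible microsomal PGE synthase (chromosome 2, 30889471 to 30929863), was the enzyme with the opposite order. It was at 0.206, 0.278 and 0.567 FPKM in dLAM libraries 1 to 3 and at 0.736, 1.15 and 1.31 FPKM in monocyte-macrophage libraries 1 to 3, without overlap. Only 2 libraries reached 1 FPKM, so it was not tested with the filter. Without a filter the log2 fold change was -0.61 with a limma adjusted p of 0.047. The other PGE synthases differed among themselves. Ptges2 fell by 0.59 on the log2 scale (SE 0.17, limma adjusted p = 0.037), at 1.24 ± 0.168 FPKM in dLAM and 2.41 ± 0.732 FPKM in monocyte-macrophages (SD, n = 3 each), a call lost without any dLAM library or monocyte-macrophage library 3, and without a filter. Ptges3, the cytosolic form and an HSP90 cochaperone, was the most abundant at 24.5 ± 2.11 and 22.4 ± 1.45 FPKM (SD, n = 3 each) and did not pass (log2 fold change 0.12, SE 0.10, limma adjusted p = 0.42).

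Shares within a library do not depend on how libraries are scaled. Hpgds made up 33.0%, 24.3% and 26.1% of the summed FPKM of Hpgds, Ptgds, Tbxas1 and Ptges in dLAM libraries 1 to 3, against 0.608%, 1.28% and 0.441% in monocyte-macrophage libraries 1 to 3. The share of Ptges was between 0.801% and 2.70% in dLAM and between 11.8% and 19.9% in monocyte-macrophages. Tbxas1 held the largest share in all 6 libraries, between 51.4% and 68.4% in dLAM and between 78.8% and 85.8% in monocyte-macrophages. The sum of the 4 enzymes was 24.1 ± 2.70 FPKM in dLAM and 6.31 ± 0.585 FPKM in monocyte-macrophages (SD, n = 3 each). As log2 ratios of FPKM + 1, Hpgds to Ptges was 2.51 ± 0.46 in dLAM and -0.97 ± 0.21 in monocyte-macrophages, and Ptgs1 to Ptgs2 was -0.78 ± 0.86 and -2.06 ± 0.61 (SD, n = 3 each). The exact two-sided permutation test gave p = 0.10 for the first, the smallest p that 3 against 3 libraries allow, and p = 0.20 for the other. Adjusted over 3 such ratios these were 0.15 and 0.20.

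**Figure D3:**
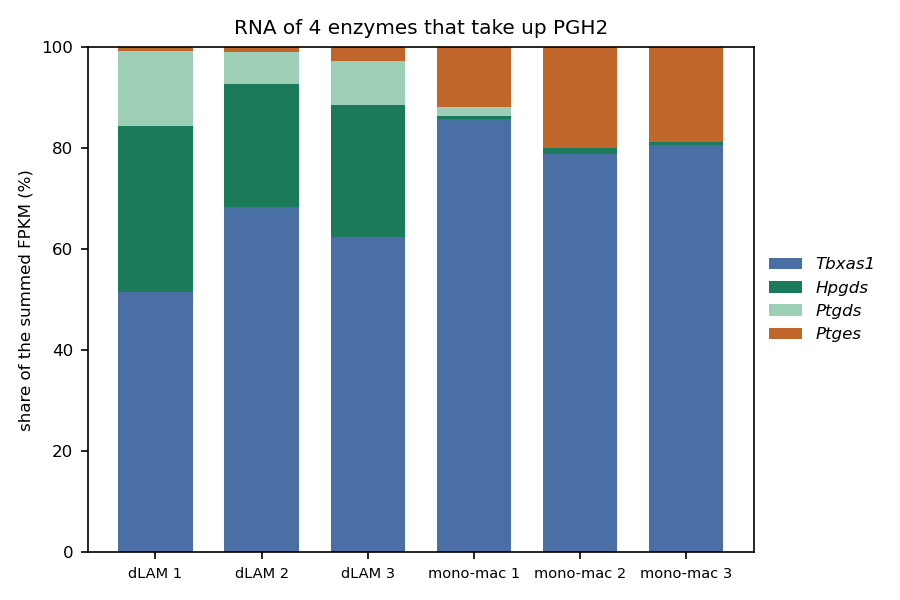
Share of Tbxas1, Hpgds, Ptgds and Ptges in their summed FPKM (%, stacked) in each dLAM and monocyte-macrophage (mono-mac) library. Hpgds takes between 24.3% and 33.0% in dLAM and at most 1.28% in monocyte-macrophages, where Ptges takes between 11.8% and 19.9%.

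In the leukotriene route RNA for the shared first step was present in both populations, while that of LTC4 synthase was near 0 in monocyte-macrophages. Alox5 (chromosome 6, 116410077 to 116461178) stood at 5.42, 4.33 and 5.84 FPKM in dLAM libraries 1 to 3 and at 3.75, 6.0 and 9.52 FPKM in monocyte-macrophage libraries 1 to 3. The monocyte-macrophage values spanned the dLAM ones, and the log2 fold change of -0.19 (SE 0.27) did not pass (limma adjusted p = 0.64). Alox5ap (chromosome 5, 149264767 to 149288153), which presents arachidonic acid to 5-lipoxygenase, was the most abundant of the 10 genes. It had 111, 103 and 102 FPKM in dLAM and 188, 179 and 178 FPKM in monocyte-macrophages, and each group was tight. Alox5ap fell by 0.78 on the log2 scale (SE 0.10, limma adjusted p = 8.4e-04), with means of 105 ± 4.80 and 182 ± 5.35 FPKM (SD, n = 3 each).

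The enzymes that compete for LTA4 had log2 fold changes of opposite sign, of which that of Ltc4s passed. Lta4h (chromosome 10, 93453411 to 93484875), which makes LTB4, stood at 66.3, 72.4 and 58.3 FPKM in dLAM libraries 1 to 3 and at 72.8, 123 and 175 FPKM in monocyte-macrophage libraries 1 to 3. dLAM library 2 and monocyte-macrophage library 1 nearly met. The log2 fold change of -0.82 (SE 0.29) did not pass (limma adjusted p = 0.068), and passed without monocyte-macrophage library 1 (log2 fold change -1.16, limma adjusted p = 0.0043). Ltc4s (chromosome 11, 50236461 to 50238616), which joins LTA4 to glutathione, was at 6.83, 2.65 and 4.03 FPKM in dLAM and listed at 0.366, 0 and 0 FPKM in monocyte-macrophages. In dLAM these levels correspond to an estimated 33.0 to 102 fragments. Gm26542, an antisense gene that shares exon bases with Ltc4s, was at 0.655, 0.459 and 0.715 FPKM in dLAM and 0.118, 0 and 0.522 FPKM in monocyte-macrophages, and without strand such reads cannot be told apart. Ltc4s was higher by 2.24 on the log2 scale (SE 0.28, limma adjusted p = 9.7e-04). The log2 ratio of Ltc4s to Lta4h, again of FPKM + 1, was -3.67 ± 0.62 in dLAM and -6.72 ± 0.88 in monocyte-macrophages (SD, n = 3 each; exact permutation p = 0.10, adjusted 0.15). In every library Lta4h RNA thus exceeded Ltc4s RNA per length.

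The order of mean levels was the same at the top in both groups. Alox5ap, Lta4h and Ptgs2 led in each, with no overlap between them. In dLAM Tbxas1, Ptgs1, Hpgds, Alox5, Ltc4s, Ptgds and Ptges followed, with Ptgs2 and Tbxas1, and all neighbours from Ptgs1 down to Ptgds overlapping between libraries. In monocyte-macrophages Alox5, Tbxas1 and Ptgs1 followed with overlapping values, then Ptges, and Ltc4s, Hpgds and Ptgds lay at 0.366 FPKM or below.

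**Figure D4:**
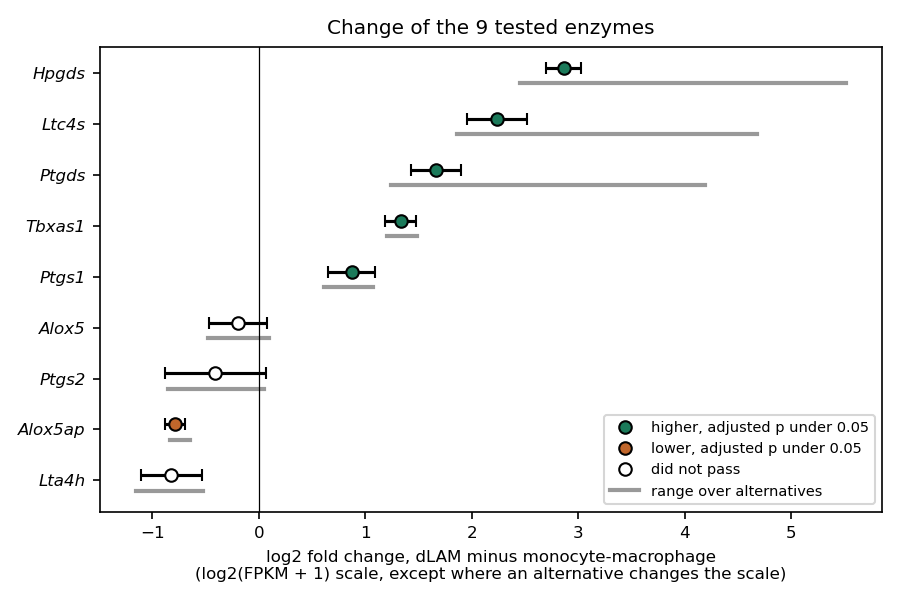
Log2 fold change of the 9 tested enzymes, dLAM minus monocyte-macrophages (point, with SE as error bar), and its range over the alternative settings (grey line). Hpgds, Ltc4s, Ptgds, Tbxas1 and Ptgs1 are filled as higher and Alox5ap as lower. The grey lines of Alox5 and Ptgs2 cross 0.

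Genes of mast cells, which are known to make PGD2 and LTC4, were present in the same libraries as Hpgds and Ltc4s. The summed level of 11 mast cell and basophil markers was 99.4, 73.2 and 54.6 FPKM in dLAM libraries 1 to 3, and 6.67, 16.1 and 11.5 FPKM in monocyte-macrophage libraries 1 to 3. Of the 11, 6 were above 1 FPKM in each dLAM library and 1, Hdc, in each monocyte-macrophage library. Of 6 tested, 5 were higher, where 19.9% of all genes were, but 4 of the 6 passed the filter through dLAM alone and so had to differ. The defining mast cell genes Cpa3, Cma1 and Mcpt4 and the IgE receptor gene Fcer1a were listed at 0 in all monocyte-macrophage libraries. Cma1, mast cell chymase, was at 21.3, 16.4 and 10.4 FPKM in dLAM libraries 1 to 3, in the same order as Hpgds. That order was not particular to mast cell genes. The macrophage markers Csf1r, Mrc1 and C1qa had it too, though Lyz2 did not. Among the other mast cell and basophil markers Cpa3, Mcpt4, Tpsb2, Fcer1a, Mcpt8 and Gata2 also had it. Kit, at 6.85, 7.79 and 7.09 FPKM, Tpsab1, Ms4a2 and Hdc did not. Ltc4s and Ptgds were also highest in library 1, but lower in library 2 than in library 3. Eosinophils, likewise known for LTC4, had 6 markers summing to between 4.65 and 17.5 FPKM in dLAM and between 1.04 and 2.43 FPKM in monocyte-macrophages. Most of the dLAM sum was Prg2, at 14.4, 5.72 and 2.59 FPKM in libraries 1 to 3, which passed the filter through dLAM alone. Siglecf did not pass (limma adjusted p = 0.13). The other 4 were below the filter. Of them Epx was at 1.06, 0.539 and 0.0281 FPKM in dLAM and 0.0509, 0 and 0 FPKM in monocyte-macrophages. Il5ra was at 0.0224, 0.148 and 0.147 FPKM in dLAM and listed at 0 in each monocyte-macrophage library. Ear1 overlapped between groups, and Ear6 had its higher values in monocyte-macrophages. The part of these cells in the levels of Hpgds, Ltc4s and Ptgs1 was not tested. Neutrophil markers, 11 in all, summed to between 590 and 806 FPKM in dLAM and to 1123, 3611 and 5775 FPKM in monocyte-macrophage libraries 1 to 3, the same order as Lta4h, Alox5 and Ptges there. Most of that sum came from the granule protein genes Ngp and Camp. Of the 11, 5 were lower, against 10.6% of all tested genes, and 6 did not pass, among them Ly6g, Cxcr2, Retnlg and Mmp9. Their part was not tested either.

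Beyond the 10 enzymes, 94 genes of the same pathways were followed in 8 lists. Of these, 51 were tested, and 14 were higher and 8 lower in dLAM (19.9% and 10.6% of all genes), with a median log2 fold change of 0.12. Of the 14, Pla2g16, Ephx1 and Cysltr2 passed the filter through dLAM alone and so had to differ. In the list of enzymes that release arachidonic acid or handle its lipid stores 3 of 9 tested genes were higher by limma and 0 lower, also 0 at an unadjusted p under 0.05. Cytosolic phospholipase A2, Pla2g4a, the main enzyme of agonist-driven release, was at 6.76 ± 0.891 and 7.37 ± 0.829 FPKM (SD, n = 3 each) and did not pass (log2 fold change -0.11, SE 0.13, limma adjusted p = 0.57). The lysosomal phospholipase gene Pla2g15 was higher at 26.3 ± 6.40 against 10.1 ± 1.79 FPKM (SD, n = 3 each), and Pla2g16 and the diacylglycerol lipase gene Daglb were higher by 1.32 and 0.41 on the log2 scale. The call of Daglb was lost in 8 of 16 alternative settings.

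Other prostanoid enzymes and breakdown genes were divided. Among 6 tested synthesis enzymes 2 were higher, Fam213b, a prostamide and PGF synthase gene, by 1.41, and the carbonyl reductase gene Cbr1 by 1.28, and Ptges2 was lower. Of 5 tested transport and breakdown genes 1 was higher and 2 lower, against 19.9% and 10.6% of all tested genes. Ptgr1, a reductase that inactivates both oxidised prostaglandins and LTB4, was at 4.36 ± 0.534 FPKM in dLAM and 11.2 ± 1.08 FPKM in monocyte-macrophages (SD, n = 3 each), a fall of 1.19 on the log2 scale (limma adjusted p = 4.3e-04). Abcc4, an exporter of prostaglandins, fell by 0.76 and the transporter gene Slco3a1 was higher by 0.99. Hpgd, which begins the breakdown of PGE2, was at 25.0 ± 2.12 and 35.9 ± 10.3 FPKM (SD, n = 3 each) and did not pass (log2 fold change -0.47, SE 0.21, limma adjusted p = 0.14).

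Receptors were divided between prostanoid types and between leukotriene classes. Of 9 prostanoid receptor genes 3 were tested. Ptger4, the PGE2 receptor EP4, was between 9.19 and 18.0 FPKM in dLAM and between 4.51 and 6.92 FPKM in monocyte-macrophages, without overlap, and was higher by 0.98 on the log2 scale (SE 0.24, limma adjusted p = 0.020). That call was lost without monocyte-macrophage library 3. Ptgir, the prostacyclin receptor, was at 0.919, 1.16 and 1.05 FPKM in dLAM and at 3.82, 3.0 and 3.0 FPKM in monocyte-macrophages, a fall of 1.06 (SE 0.13, limma adjusted p = 9.8e-04). Ptger2, the receptor EP2, did not pass (log2 fold change -0.10, SE 0.11, limma adjusted p = 0.54). The PGD2 receptors Ptgdr and Ptgdr2 and the thromboxane receptor Tbxa2r did not reach 1 FPKM in any library.

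Among leukotriene and resolvin receptors, 4 of 7 tested genes were higher and 2 lower, where 19.9% of all tested genes were higher and 10.6% lower. The cysteinyl leukotriene receptor genes Cysltr1 and Cysltr2 were higher, while Oxgr1 of the same list was listed at 0 in every library. Cysltr1 was at 16.9, 14.2 and 14.4 FPKM in dLAM and at 7.93, 9.18 and 9.44 FPKM in monocyte-macrophages (log2 fold change 0.71, SE 0.11, limma adjusted p = 0.0030). Cysltr2, which passed the filter through dLAM alone, was at 1.99, 1.17 and 2.23 FPKM there and at 0.0405, 0.395 and 0.0652 FPKM in monocyte-macrophages. Ltb4r1, the high-affinity LTB4 receptor, was at 15.2, 9.79 and 9.88 FPKM in dLAM and at 23.7, 21.8 and 29.0 FPKM in monocyte-macrophages, and its log2 fold change was -1.05 (SE 0.18, limma adjusted p = 0.0045). Fpr2, a formyl peptide receptor that also binds lipoxin, fell by 1.16, a call lost without dLAM library 1 or 2. The chemerin receptor gene Cmklr1 and Gpr18, both discussed as resolvin receptors, were higher by 1.03 and 1.0, the call of Gpr18 being lost in 7 of 16 alternative settings.

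Of the remaining leukotriene genes 1 was higher and 1 lower among 10 tested, against 19.9% and 10.6% of all tested genes. Abcc1, the exporter of LTC4, was at 8.35 ± 0.866 FPKM in dLAM and 4.64 ± 0.711 FPKM in monocyte-macrophages (SD, n = 3 each; log2 fold change 0.73, SE 0.13, limma adjusted p = 0.0054). Mgst1, a microsomal glutathione transferase of the same protein family as Ltc4s, Alox5ap and Ptges, fell by 2.35 (SE 0.18, limma adjusted p = 1.3e-04), with 4.56, 3.21 and 4.81 FPKM in dLAM and 23.6, 21.3 and 31.7 FPKM in monocyte-macrophages. Put together after the values were seen, that family thus held 1 gene that was higher (Ltc4s) and 2 that were lower (Alox5ap and Mgst1), while Mgst3 did not pass and Ptges and Mgst2 were not tested. Cyp4f18, which inactivates LTB4 in mouse neutrophils, was at 33.7 ± 1.21 and 37.7 ± 4.42 FPKM (SD, n = 3 each) and did not pass (log2 fold change -0.15, limma adjusted p = 0.34). Of 10 other lipoxygenase and epoxide genes only Ephx1, microsomal epoxide hydrolase, was tested, and, having passed the filter through dLAM alone, it was higher by 2.10 (limma adjusted p = 1.3e-04). Alox15, the 12/15-lipoxygenase, was between 0.219 and 0.600 FPKM in dLAM and at most 0.170 FPKM in monocyte-macrophages, and Alox12 stayed below 0.1 FPKM in all libraries.

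Of 10 tested inducers and regulators of COX-2, 1 was higher and 1 lower, against 19.9% and 10.6% of all tested genes. Zfp36l1, which binds AU-rich RNA, was at 89.1 ± 12.9 FPKM in dLAM and 35.3 ± 16.3 FPKM in monocyte-macrophages (SD, n = 3 each; log2 fold change 1.39, SE 0.28, limma adjusted p = 0.0080). Cebpb, a transcription factor that acts on Ptgs2, fell by 0.42, a call lost in 11 of 16 alternative settings. Zfp36, which destabilises AU-rich mRNA such as that of Ptgs2, was at 234, 361 and 540 FPKM in dLAM and at 440, 651 and 251 FPKM in monocyte-macrophages, highest in the same library of each group as Ptgs2 (log2 fold change -0.22, SE 0.40, limma adjusted p = 0.73).

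**Figure D5:**
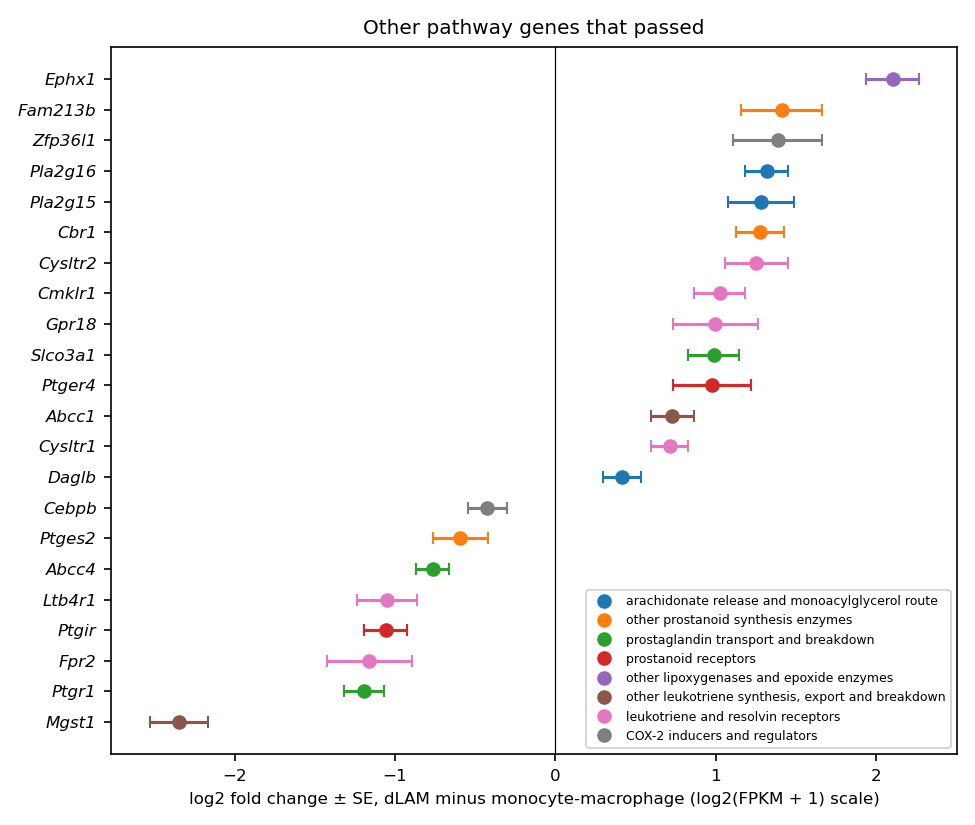
Log2 fold change with SE, dLAM minus monocyte-macrophages, of the 22 other pathway genes that passed, coloured by list. From top to bottom 14 genes lie right of 0, led by Ephx1 at 2.10, and 8 lie left of 0, with Mgst1 at -2.35 the lowest.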

How the data were processed

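RNA of 6 libraries was measured by sequencing of read pairs on an Illumina instrument. The authors deposited FPKM values in 1 table. Per the submitters' processing notes, FastQC, HISAT2, featureCounts and the mouse build mm10 were used. The sources used here give no versions, annotation, gene lengths or strand handling. Ptgs1, Tbxas1, Alox5ap and Ltc4s share exon bases with an annotated antisense gene in GENCODE M21 (mm10), and without strand such reads cannot be told apart. The antisense genes had at most 0.715 FPKM. Gene symbols of 94.3% of rows matched 1 GENCODE gene, from which coordinates and exon lengths come. Depth is an estimate, since 40.4% to 44.1% of values below 20 fragments came out whole within 0.02 fragments, and covers counting error only. Some zeros may be missing values, since 4 genes had a 0 in a single library beside more than 5 FPKM everywhere else, so no mean is given for a group with a 0. No pair of libraries was identical.

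FPKM are unsuited to a count model, and none was used. Values were tested as log2(FPKM + 1) in limma 3.58.1 (R 4.3.3) with a mean-variance trend and 1 term for the group, across all 11317 genes that passed the filter. On simulated data with 200 of 10962 genes changed by 2 on the log2 scale, 94.0% were recovered and 5 unchanged genes were called. The changed genes were drawn from the more abundant ones alone. The recovery therefore does not cover genes as low as Hpgds, Ptgds or Ltc4s, nor smaller changes. Ratios within a library were compared by exact permutation (scipy 1.17.1). All 10 members are named, and every gene of the 8 pathway lists that passed. The members and lists were chosen with earlier results of these data known. Alternatives covered the pseudocount, the filter, 3 scalings, the trend, a replicate block, a term for Y-linked RNA and each library left out. Plots were made with matplotlib 3.10.9 in Python 3.11.15.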

Additional observations from a re-analysis of the deposited data

How the results depend on the processing

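Of 142 values of the 9 tested enzymes under alternative settings, 134 kept direction and side of the threshold, 4 lost the call (all Ptgs1), 2 gained one (Ptgs2 with the term for Y-linked RNA, Lta4h without monocyte-macrophage library 1) and 2 turned: Ptgs2 to 0.048 without monocyte-macrophage library 2 and Alox5 to 0.10 without monocyte-macrophage library 3, neither called. Leaving out 1 library, Ptgs2 ranged from -0.85 to 0.048 and Alox5 from -0.48 to 0.10. Hpgds, Ptgds, Tbxas1, Ltc4s and Alox5ap kept their calls in every setting that tested them. Hpgds, Ptgds and Ltc4s passed the filter through dLAM alone and so had to differ, which leaves little weight to their kept calls. Of 345 values of the 22 pathway genes, 308 kept their call and 37 lost it. The 308 include values of Pla2g16, Ephx1 and Cysltr2, which also had to differ. At a filter of 5 FPKM, where Ptgds and Ltc4s are not tested, 3 enzymes were higher, and 1247 genes in all. With no filter 2 enzymes were lower, Alox5ap and Ptges, and with the term for Y-linked RNA 2, Alox5ap and Ptgs2. Leaving out 1 library gave 4 to 5 enzymes higher and 1 to 2 lower, with 1590 to 2096 genes higher and 780 to 1220 lower, against 2249 and 1204 in all 6 libraries. The 780 came without dLAM library 2. With the 2 libraries high in Y-linked RNA left out, a setting added after the data were seen, 1480 genes were higher and 780 lower. Quantile normalization moved the median of all genes from 0.06 to -0.05 and the share of higher genes among those called to 51.3%, against 65.1% as deposited, and no enzyme's call changed. With TPM in place of FPKM, a pseudocount of 0.1 or median-of-ratios scaling no enzyme's call changed either. With no filter 72.3% of called genes were higher. The log2 ratios kept their direction in all settings.

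No pairing by replicate number was seen, as the deviations of same-numbered libraries correlated at 0.19, -0.15 and -0.09. With 3 libraries per group this cannot exclude pairing. The highest correlation, 0.39, was between dLAM library 3 and monocyte-macrophage library 2, those with more Y-linked RNA. With the replicate block 1860 genes were higher and 999 lower, and Ptgs1 lost its call (limma adjusted p = 0.053), leaving 4 enzymes higher and 1 lower. Depth limits Hpgds, Ptgds and Ltc4s in monocyte-macrophages, which rest on at most 6.68 estimated fragments per library.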
